A study of Mus musculus with 18 samples.

Results

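The genes that build crosslinks into the extracellular matrix, cut it, or hold the cutting enzymes in check were examined in mouse liver. The set held 10 genes, chosen by name with earlier results of these data known, of the 16245 genes in the table. They were the lysyl oxidases Lox, Loxl1 and Loxl2, the tissue inhibitors of metalloproteinases Timp1, Timp2 and Timp3, the matrix metalloproteinases Mmp2, Mmp13 and Mmp14, and the procollagen peptidase Adamts2. All 10 were present in the table and received an adjusted p in every comparison. The livers came from wild-type (WT) C57BL/6 mice, C57BL/6J males by the methods of the study, which were placed at 8 weeks of age on a NASH diet, a fatty diet used to produce steatohepatitis, and kept at about 29 °C, where mice spend little energy on keeping warm. There were 3 groups of 6 single-housed mice. One group received vehicle, one received recombinant GDF15, a stress-induced cytokine that lowers food intake, once daily under the skin, and the pair-fed group was given only the amount of food that the GDF15-treated mice had eaten. The labels list several doses of GDF15 and do not tie a dose to a mouse.

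Fibrillar collagen leaves the cell as a procollagen whose end pieces have to be removed before the molecules pack into fibrils. ADAMTS2 removes the amino-terminal piece, and the lysyl oxidases then oxidise lysine side chains, which react with each other and join neighbouring molecules. Metalloproteinases cut the finished matrix, and TIMP proteins block them by binding at the active site. In a scarring liver, hepatic stellate cells and portal fibroblasts are known as the main makers of these proteins, with macrophages adding some of the proteases.

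Promoter sequence from RefSeq on GRCm38.p6 was at hand for 6 of the 10 genes. The 80 bases just before the start site are shown for 3 of them that lie outside annotated exons, since they belong to a protease that fell, an inhibitor that fell and a protease that did not pass the test. Capitals mark matches, on either strand, to TGANTCA (the AP-1 element), TATAAA (the TATA box) or GGGCGG (the GC box).

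Mmp13, chr9:7272434-7272513, plus strand: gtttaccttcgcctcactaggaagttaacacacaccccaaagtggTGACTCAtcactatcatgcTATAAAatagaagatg

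Timp1, chrX:20870086-20870165, plus strand: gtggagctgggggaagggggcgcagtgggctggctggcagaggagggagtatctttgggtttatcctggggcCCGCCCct

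Mmp14, chr14:54431518-54431597, plus strand: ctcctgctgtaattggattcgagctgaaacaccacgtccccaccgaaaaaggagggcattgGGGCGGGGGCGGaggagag

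The Mmp13 window held an AP-1 element 35 to 29 bases and a TATA box 16 to 11 bases before the start, at a GC content of 41.2%. Such matches are found in the 300-base promoters of 7.81% (AP-1) and 13.6% (TATA) of the 32851 RefSeq entries. Timp1 (67.5% GC) and Mmp14 (60.0% GC) held GC boxes, as do 35.7% of all entries, and neither of the other motifs was in their windows. A match describes the letters only. The Timp1 gene lies inside the span of Syn1, which is read from the other strand.

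Libraries held 16508864 to 35301853 estimated counts, with the pair-fed group ranging most widely. Values below are counts divided by the DESeq2 size factor of the library, called normalised counts, and errors of means are SDs over 6 mice. Differences are DESeq2 log2 fold changes with their standard errors, fitted over all 18 libraries, and adjusted p-values are Benjamini-Hochberg values over all genes tested. Both an adjusted p under 0.05 alone and the thresholds of the study, which also ask for an absolute log2 fold change above 1, are given. The comparisons of GDF15 with vehicle and with pair-fed mice share the GDF15 samples.

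Most of the matrix enzymes and inhibitors were lower in the livers of GDF15-treated mice than in either control group. Against vehicle, 8 of the 10 genes fell at an adjusted p under 0.05 in DESeq2, and 0 rose. Over all 14667 genes tested, 17.5% fell and 15.8% rose by that rule. Lox, Loxl1, Timp1, Mmp2, Mmp13 and Adamts2 also passed the fold threshold, 6 of 10 genes where 5.37% of all genes did so downwards. Against pair-fed mice the same 8 genes fell and 0 rose, beside 13.8% and 13.3% of the 14353 genes tested, and 4 of them (Lox, Loxl1, Timp1 and Mmp13) passed both thresholds, beside 2.75% of all genes. Loxl1 missed the fold threshold without pair-fed replicate 1 (log2 fold change -0.80) or without GDF15 replicate 5 (-0.93) or 6 (-0.96), and against vehicle Adamts2 missed it without vehicle replicate 1 (-0.98). The median log2 fold change of the 10 genes was -1.18 against vehicle and -0.79 against pair-fed mice, where the medians over all genes tested were 0.0024 and -0.00077. Timp3 and Mmp14 did not pass in either comparison. Because the 10 genes were chosen with earlier results of these data known, their counts beside all genes support nothing by themselves. In bulk liver, fewer cells that make a transcript and less transcript per cell cannot be told apart.

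**Figure D1:**
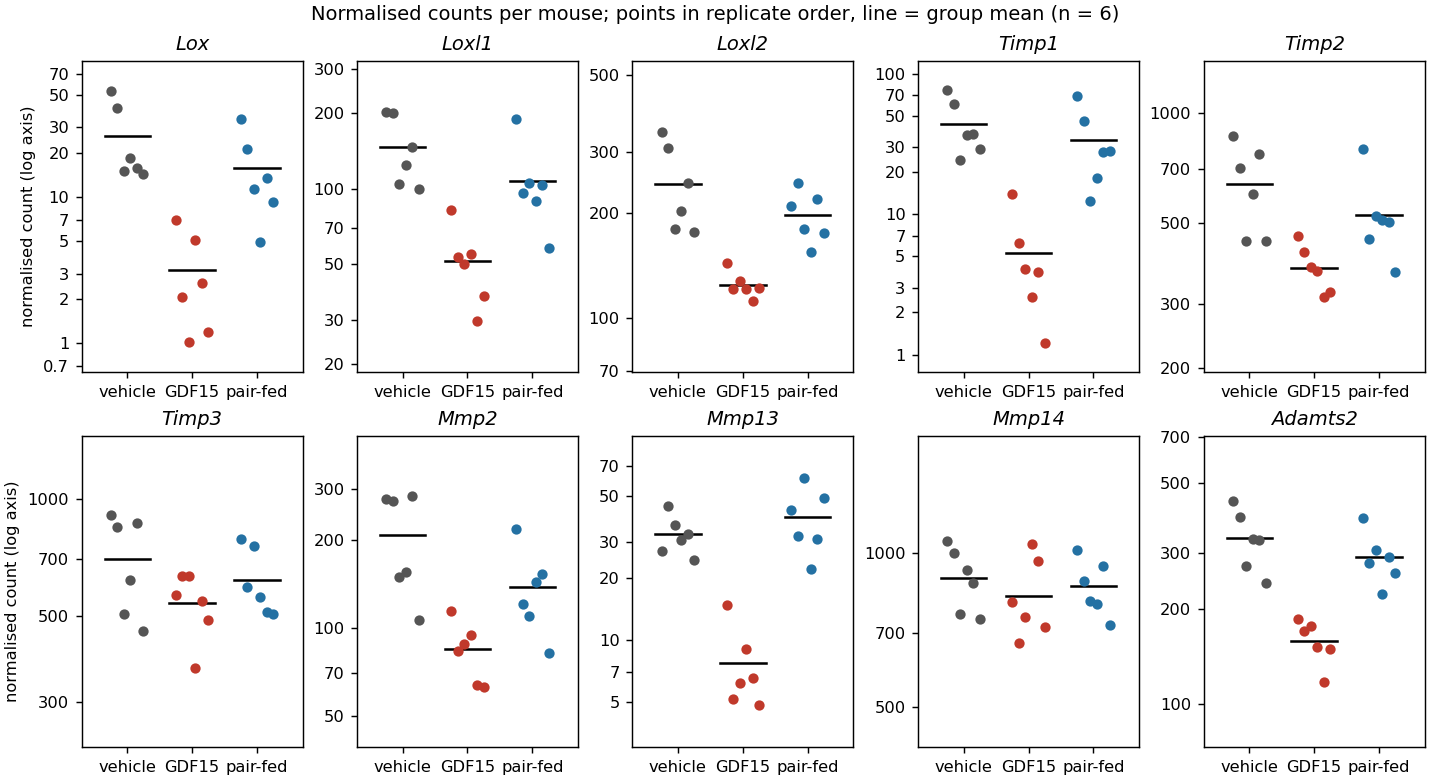
Normalised counts (log axis) of the 10 genes in each mouse, by group, with points in replicate order and the group mean as a line (n = 6 mice per group). GDF15 points lie below all vehicle points for Lox, Loxl1, Loxl2, Timp1, Mmp13 and Adamts2, while the groups overlap for Timp2, Timp3, Mmp2 and Mmp14.

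Lox encodes the founding member of the lysyl oxidase family and lies at chr18:52516067-52529867 on the minus strand (GRCm38). It was the scarcest of the 10 transcripts per unit of length. Normalised counts ran from 14.4 to 53.3 (median 17.3) with vehicle, from 1.02 to 6.93 (median 2.33) with GDF15 and from 4.95 to 34.5 (median 12.5) with pair-feeding. Every GDF15 mouse was below every vehicle mouse, and 4 of 6 were below the lowest pair-fed mouse. The fall was 3.04 ± 0.57 on the log2 scale against vehicle (DESeq2 adjusted p = 1.66e-06) and 2.28 ± 0.57 against pair-fed mice (adjusted p = 0.000711). These values rest on few reads. The 6 GDF15 libraries held 18 Lox counts in all (exact Poisson 95% interval 10.7 to 28.4, counting error only) against 161 in the vehicle libraries, and 4 of the 6 were at 3 counts or fewer, the level taken as the limit of detection.

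Loxl1, a relative with a known role at elastic fibres, showed the same pattern at a higher count. It lies at chr9:58287738-58313186 on the minus strand. Normalised counts ran from 99.9 to 201 (median 135) with vehicle, from 29.9 to 82.3 (median 51.9) with GDF15 and from 58.2 to 190 (median 99.96) with pair-feeding. The GDF15 and vehicle values did not overlap, and 5 of 6 GDF15 mice were below the lowest pair-fed mouse. Loxl1 fell by 1.50 ± 0.27 on the log2 scale against vehicle (DESeq2 adjusted p = 7.46e-07) and by 1.04 ± 0.27 against pair-fed mice (adjusted p = 0.00120). Without pair-fed replicate 1, the highest of its group, the latter was -0.80 (DESeq2 adjusted p = 0.00930), short of the fold threshold.

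Loxl2, which crosslinks collagen including that of basement membranes, was the most abundant of the 3 oxidases and had the smallest log2 fold change of them in both GDF15 comparisons. It lies at chr14:69609068-69695834 on the plus strand. Normalised counts ran from 177 to 343 (median 223) with vehicle, from 112 to 144 (median 121) with GDF15 and from 154 to 244 (median 195) with pair-feeding. All GDF15 mice were below all mice of both other groups, and their coefficient of variation was 8.70%, against 28.8% in vehicle mice and 16.7% in pair-fed mice. The fall was 0.96 ± 0.16 on the log2 scale against vehicle (DESeq2 adjusted p = 1.55e-07), just short of the fold threshold, and 0.66 ± 0.16 against pair-fed mice (adjusted p = 0.000686).

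Among the inhibitors, Timp1 fell steeply, Timp2 moderately, and Timp3 did not pass the test. Timp1 encodes the TIMP that is known to be induced in injured and scarring liver, and lies at chrX:20870166-20874735 on the plus strand. Its normalised counts ran from 24.4 to 76.8 (median 36.8) with vehicle, from 1.21 to 13.9 (median 3.996) with GDF15 and from 12.5 to 69.0 (median 27.9) with pair-feeding. The highest GDF15 mouse was below the lowest vehicle mouse but above the lowest pair-fed mouse. Timp1 fell by 2.99 ± 0.48 on the log2 scale against vehicle (DESeq2 adjusted p = 2.25e-08) and by 2.59 ± 0.48 against pair-fed mice (adjusted p = 2.50e-06). The GDF15 libraries held 32 Timp1 counts in all (Poisson 95% interval 21.9 to 45.2) against 268 in the vehicle libraries, and 3 of the 6 were at 3 counts or fewer.

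Timp2 encodes an inhibitor that also takes part in activating pro-MMP2 at the cell surface, together with MMP14. The gene lies at chr11:118301069-118355740 on the minus strand. Normalised counts ran from 446 to 864 (median 653) with vehicle, from 313 to 461 (median 373) with GDF15 and from 366 to 796 (median 506) with pair-feeding, so that the groups overlapped. Timp2 fell by 0.76 ± 0.18 on the log2 scale against vehicle (DESeq2 adjusted p = 0.000265). The fall of 0.47 ± 0.18 against pair-fed mice was near the threshold (DESeq2 adjusted p = 0.0373, edgeR adjusted p = 0.0584), and without pair-fed replicate 1, the highest of its group, it was 0.32 with a DESeq2 adjusted p of 0.156.

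Timp3 encodes the TIMP that stays bound to the matrix and also blocks ADAM and ADAMTS proteases. Its normalised counts were 700 ± 197 in vehicle mice, 539 ± 101 in GDF15 mice and 618 ± 123 in pair-fed mice, ranging from 456 to 907, 367 to 633 and 504 to 786, and all groups overlapped. The log2 fold change against vehicle was -0.38, with a 95% interval of -0.73 to -0.03 and a DESeq2 adjusted p of 0.0908. Leaving out vehicle replicate 3 or 6 brought that value to 0.0388 or 0.0223. Against pair-fed mice the log2 fold change was -0.19 (interval -0.55 to 0.16, DESeq2 adjusted p = 0.452). The gene lies at chr10:86300372-86349506 on the plus strand, inside Syn3, and shares 21.3% of its exon bases with Syn3 on the other strand. The strand setting of the quantification is not given in the sources used here, so reads of that stretch may be divided between the genes.

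The 3 metalloproteinases differed more among themselves. Mmp13 encodes the main interstitial collagenase of rodents and lies at chr9:7272514-7283331 on the plus strand. Its normalised counts ran from 24.4 to 44.8 (median 31.7) with vehicle, from 4.82 to 14.7 (median 6.32) with GDF15 and from 22.3 to 61.3 (median 37.5) with pair-feeding. All GDF15 mice were below all mice of both other groups. Mmp13 fell by 2.04 ± 0.33 on the log2 scale against vehicle (DESeq2 adjusted p = 2.25e-08) and by 2.32 ± 0.32 against pair-fed mice (adjusted p = 9.83e-11). It was the one gene of the 10 whose pair-fed mean was above the vehicle mean. The Mmp13 values also rest on few reads. The GDF15 libraries held 44 Mmp13 counts in all (Poisson 95% interval 32.0 to 59.1) against 193 in the vehicle libraries. The lowest GDF15 library was at 4 counts.

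Mmp2 encodes gelatinase A, which digests denatured collagen and type IV collagen, and lies at chr8:92827291-92853420 on the plus strand. Normalised counts ran from 107 to 284 (median 214) with vehicle, from 62.7 to 114 (median 85.8) with GDF15 and from 82.0 to 219 (median 132) with pair-feeding. In the vehicle group 3 mice lay between 272 and 284 and 3 between 107 and 156, and 5 of 6 GDF15 mice were below the lowest of them. Mmp2 fell by 1.29 ± 0.26 on the log2 scale against vehicle (DESeq2 adjusted p = 7.05e-06). The fall of 0.70 ± 0.26 against pair-fed mice passed in DESeq2 (adjusted p = 0.0270) and not in edgeR (adjusted p = 0.0547), and without pair-fed replicate 1 it was 0.52 (DESeq2 adjusted p = 0.113).

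Mmp14 encodes the membrane-bound metalloproteinase that activates pro-MMP2, and lies at chr14:54431612-54445364 on the plus strand. It was at 895 ± 127 normalised counts in vehicle mice, 825 ± 147 in GDF15 mice and 861 ± 106 in pair-fed mice. The ranges, 744 to 1059, 669 to 1042 and 725 to 1015, nearly coincided. The log2 fold change was -0.12 against vehicle (95% interval -0.36 to 0.12, DESeq2 adjusted p = 0.471) and -0.06 against pair-fed mice (interval -0.30 to 0.17, adjusted p = 0.737). The lower end of the first interval is 0.782 of the vehicle level.

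Adamts2, the procollagen amino-terminal peptidase, lies at chr11:50602084-50807573 on the plus strand. Normalised counts ran from 241 to 439 (median 331) with vehicle, from 117 to 185 (median 161) with GDF15 and from 223 to 387 (median 285) with pair-feeding. No GDF15 mouse reached the lowest mouse of either other group. Adamts2 fell by 1.07 ± 0.15 on the log2 scale against vehicle, the lowest adjusted p of the 10 genes in that comparison (DESeq2 adjusted p = 3.44e-10), and by 0.87 ± 0.16 against pair-fed mice (adjusted p = 7.85e-07). The groups were fully separate against vehicle for 6 of the 10 genes, where 6.94% of all genes tested had every GDF15 mouse below every vehicle mouse. Against pair-fed mice this held for Loxl2, Mmp13 and Adamts2, beside 5.23% of all genes.

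**Figure D2:**
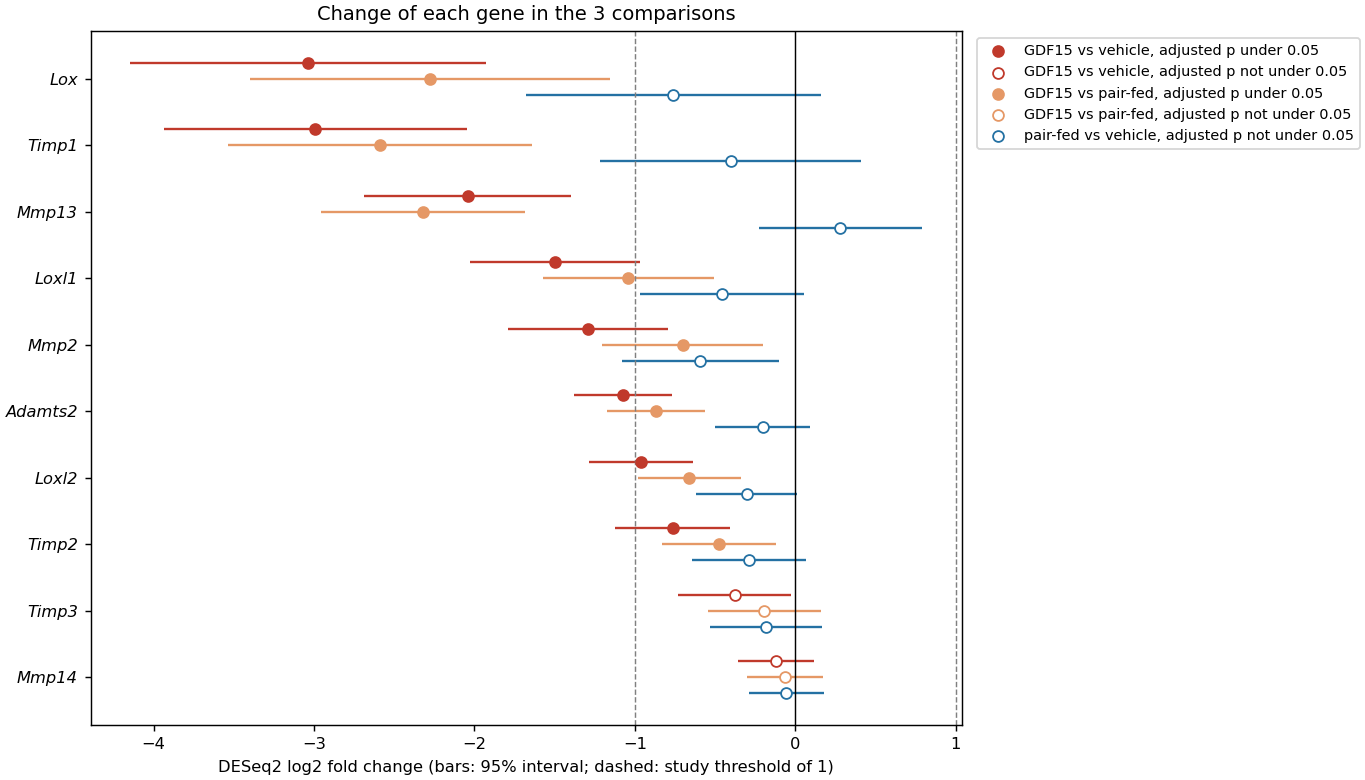
DESeq2 log2 fold changes of the 10 genes, with 95% intervals, in the 3 comparisons; filled points have an adjusted p under 0.05, and dashed lines mark the fold threshold of 1. Lox and Timp1 fell by 3.04 and 2.99 on the log2 scale against vehicle, Mmp14 sits at -0.12, and no pair-fed against vehicle value is filled.

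Food restriction alone was addressed by comparing pair-fed mice with vehicle. None of the 10 genes passed at an adjusted p under 0.05 in DESeq2 or in edgeR, and the background was 0 of 16242 genes tested in DESeq2. At an unadjusted p under 0.05, 1 of the 10 genes passed, beside 718 genes (4.42%) in all. That gene was Mmp2, with a log2 fold change of -0.59 ± 0.25 (DESeq2 adjusted p = 0.998). The log2 fold change was below 0 for 9 of the 10 genes, as for 51.5% of all genes, with a median of -0.30 against -0.0045 over all genes. The 95% intervals were wide, and for Lox, Timp1 and Mmp2 they reached past the fold threshold. That of Lox ran from -1.68 to 0.16, and that of Loxl1 from -0.97 to 0.06. That of Timp1 ran from -1.21 to 0.41, and that of Mmp2 from -1.08 to -0.10. The Mmp13 log2 fold change was 0.28, with an interval of -0.23 to 0.79.

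With falls of unequal size, some proportions within the families differed between GDF15 and vehicle mice. Levels per kilobase, using the median length of the coding transcripts in GENCODE, allow genes to be set side by side. Timp1 made up 8.11% ± 1.83 of the summed Timp1, Timp2 and Timp3 level in vehicle mice, 1.50% ± 1.11 in GDF15 mice and 7.34% ± 3.31 in pair-fed mice. All GDF15 mice (0.413% to 3.61%) were below all vehicle mice (5.89% to 10.7%), and they overlapped the pair-fed mice, of which the lowest was at 2.66%. Among the oxidases, Lox took 4.95% ± 1.56 of the summed level with vehicle and 1.42% ± 0.864 with GDF15, and Loxl2 took 54.0% ± 1.58 and 65.5% ± 6.34. Both shares were separate from vehicle in every mouse and overlapped with pair-feeding. The ratio of Mmp2 to Mmp14 counts was 0.228 in vehicle mice, 0.105 in GDF15 mice and 0.158 in pair-fed mice, and again only the vehicle and GDF15 ranges were separate. The Timp2, Timp3 and Loxl1 shares overlapped between GDF15 and vehicle mice, as did the ratios of Mmp14 and of Mmp2 to Timp2. The Timp3 share was 44.8% ± 1.74 with vehicle and 54.5% ± 5.35 with GDF15. The Lox share rests on 1 to 8 Lox counts in each GDF15 library. These proportions are descriptions, were not set beside a background of all genes and were not tested.

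**Figure D3:**
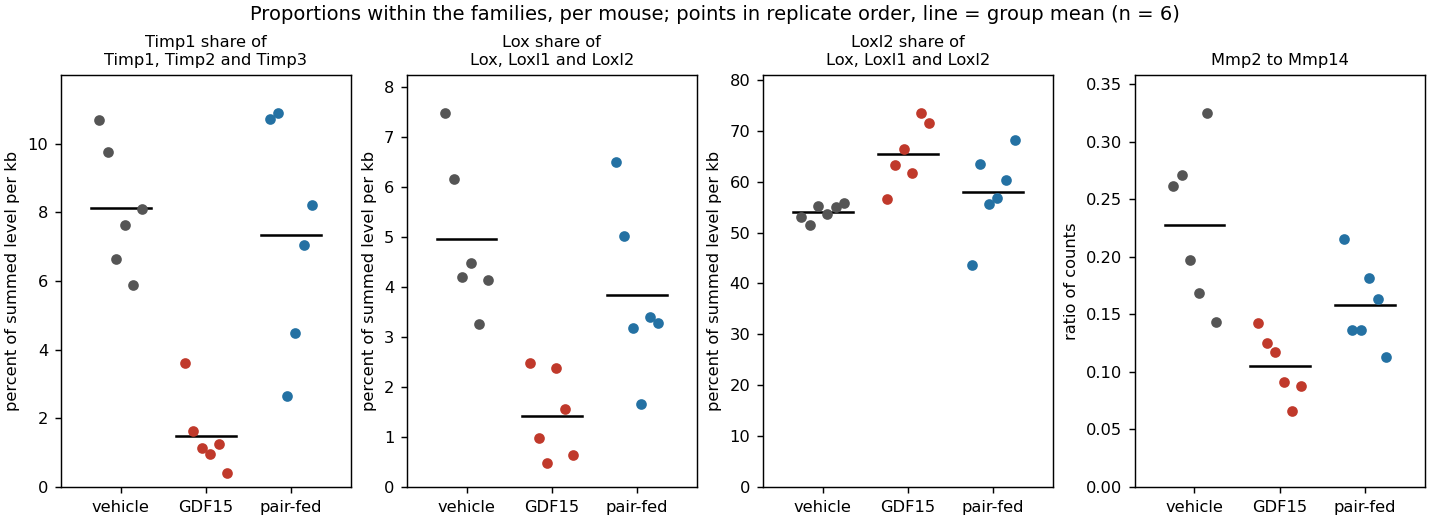
Selected proportions within the gene families in each mouse, with points in replicate order and group means as lines (n = 6). Proportions that overlapped between GDF15 and vehicle mice are not drawn. The first 3 panels give the percent of the summed level per kilobase that is Timp1, Lox or Loxl2, and the last gives the ratio of Mmp2 to Mmp14 counts; the Timp1 share averaged 8.11% with vehicle and 1.50% with GDF15.

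By level per kilobase, the vehicle livers held most Mmp14 (345 normalised counts per kb), Timp2 (289) and Timp3 (276), which overlapped one another from mouse to mouse. Mmp2 (111) came next, clear of Timp3. Loxl2 (58.1), Timp1 (51.3), Adamts2 (45.9) and Loxl1 (44.3) followed, each overlapping its neighbour in the order. Mmp13 (12.2) and Lox (5.72) were lowest, and Mmp13 was clear of Loxl1. In GDF15 livers Mmp14 (318) stood alone at the top, clear of Timp3 (212). Timp1 dropped behind Adamts2 and Loxl1 to 6.18 per kb, though it overlapped Loxl1, and Lox, at 0.686 per kb, was clear of Mmp13 (2.89). In pair-fed livers Lox (3.44) was likewise clear of Mmp13 (14.9), and Timp1 (39.1) was behind Adamts2 (40.0), which it overlapped. Mmp14 (332) overlapped Timp3 (243) there. The choice of transcript length moves these levels. With the longest coding transcript, vehicle levels were 276 for Mmp14, 172 for Timp2, 148 for Timp3 and 67.5 for Mmp2. Loxl2 (45.6) then came behind Timp1 (49.8) and Adamts2 (45.9), so the order of these genes depends on the length. With that length Mmp14 was clear of the next gene in pair-fed livers too. The shares given above used the median length only.

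Mice of one group that were high in one of these transcripts tended to be high in the others. Deviations of log2(normalised count + 1) from the group mean were correlated over the 18 samples, and r was above 0 for all 45 pairs of the 10 genes, with a median of 0.61 and a range of 0.17 to 0.91. The median over all pairs of 10883 genes with a mean normalised count of at least 50 was 0.001. Lox, Timp1 and Mmp13 are below that mean, so pairs with them have no like background. The values are descriptions, since the points share libraries and depth. Timp2 and Mmp2 had the highest r (0.91), followed by Loxl1 and Timp2 (0.90). Mmp13 went least with the rest (median r 0.21), and Mmp14 next least (0.48). Replicate 1 was the highest of its group for 8 of the 10 genes in each of the 3 groups, and vehicle replicate 6 was the lowest of its group for 9. Without replicate 1 of both the vehicle and GDF15 groups, an alternative chosen after the data were seen, 8 genes fell against vehicle and 6 passed both thresholds, the counts of the full fit.

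**Figure D4:**
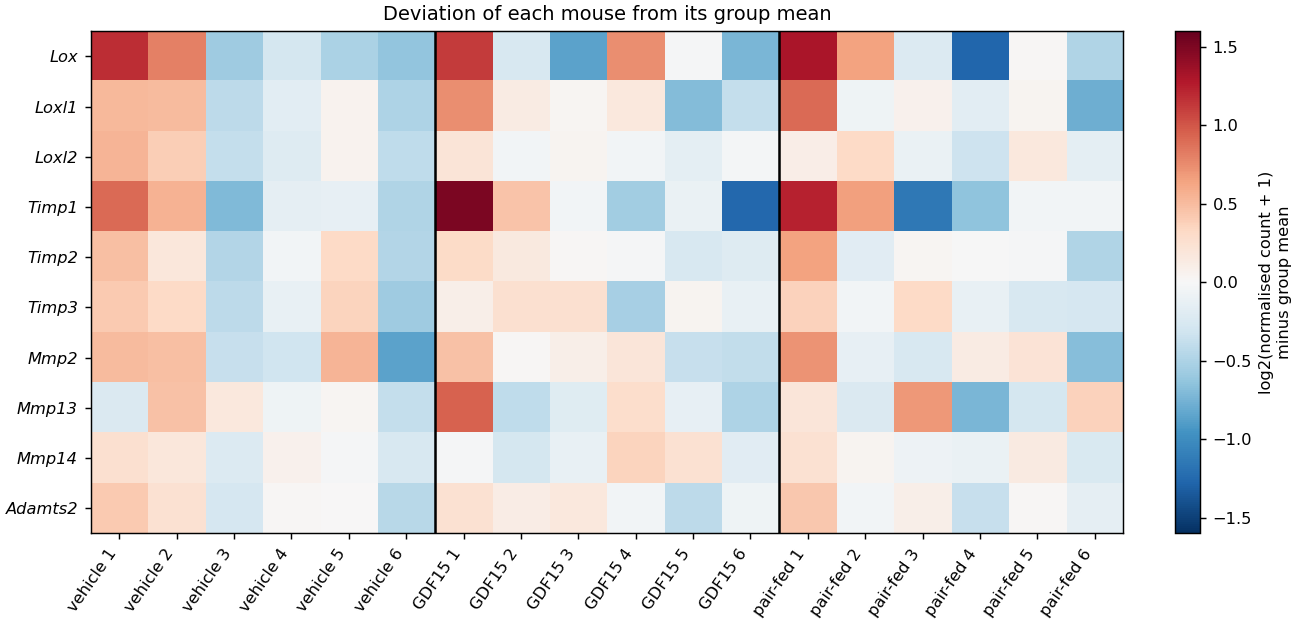
Deviation of log2(normalised count + 1) of each gene from its group mean, for the 6 mice of each group in replicate order, with red above and blue below the mean. Replicate 1 is above the mean for 9 genes in the vehicle group, 9 in the GDF15 group and 10 in the pair-fed group, and replicate 6 is above it for 0, 0 and 1.

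The transcripts that followed each gene most closely over all 18 samples, among 10876 with a mean normalised count of at least 50, were found for the 7 more abundant genes. Adamts2 went with its own substrate, Col1a1 (r = 0.98, and 0.93 within groups), then Phldb1 and Col1a2. Loxl1 went with the integrin gene Itga8 (r = 0.98, 0.96 within groups), Emp1 and Olfml3. Itga8 was also first for Timp2 (0.96), ahead of Lum and Adamtsl2, and second for Mmp2, after Ltbp1 (0.96). Loxl2 went with Ppic (0.97), Sparc and Fblim1. Timp3 had a different set, led by Adgrg1 (0.95), Sfxn3 and Sparcl1, and Mmp14 another, with Zfp385a (0.90), Cd9 and Ppp2r2a. Lox, Timp1 and Mmp13 were too scarce for this search. These genes were picked for their likeness, so their r has no test.

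The collagens that these enzymes act on were lower too. Of the 9 fibrillar collagen and elastic fibre substrate genes in the table, 8 fell against vehicle (17.5% of all genes tested did) and 8 against pair-fed mice (13.8%) at a DESeq2 adjusted p under 0.05, and the median log2 fold changes were -1.45 and -1.30. Col1a1 fell by 2.51 ± 0.32 on the log2 scale against vehicle, Col3a1 by 2.21 ± 0.22, Col1a2 by 1.95 ± 0.20 and Col5a2 by 1.78 ± 0.27. Among the 10 genes, only Lox, Timp1 and Mmp13 had log2 fold changes of that size, and these differences in size were not tested. Per 100 counts of Col1a1, Col1a2 and Col3a1 together, Adamts2 was at 6.39 with vehicle and 13.7 with GDF15, Loxl2 at 4.56 and 10.9, Timp3 at 13.2 and 47.6, and Mmp14 at 17.5 and 73.7. In all, 7 of the 10 genes were higher by this measure in every GDF15 mouse than in every vehicle mouse. That share is no more than the background, since 84.4% of all genes tested met the same rule. Against pair-fed mice it was the same 7 genes, beside 79.3% of all genes. The exceptions were Lox, Timp1 and Mmp13, whose ratios to collagen overlapped between GDF15 and both control groups. Mmp13 stood at 0.653 per 100 collagen counts with vehicle and 0.645 with GDF15.

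Other genes of the same pathways were followed through 8 lists of 89 genes in all, 84 of them in the table. Their counts are to be read beside all genes tested, of which 17.5% fell and 15.8% rose against vehicle, and 13.8% fell and 13.3% rose against pair-fed mice. Against vehicle, 1 of 2 other lysyl oxidases fell. It was Loxl3 (log2 fold change -0.45 ± 0.16, DESeq2 adjusted p = 0.0223), named here after its values were seen, while Loxl4 was at -0.07. Of 15 other metalloproteinases, 6 fell and 0 rose against vehicle in DESeq2 (14 had an adjusted p, all genes 17.5% and 15.8%). Against pair-fed mice 4 fell (12 had an adjusted p, all genes 13.8%). With edgeR 5 fell against vehicle and 4 against pair-fed mice. Mmp12, the macrophage elastase, fell by 2.30 ± 0.30 on the log2 scale against vehicle and by 2.26 ± 0.30 against pair-fed mice. It ran from 119 to 338 normalised counts with vehicle, from 24.7 to 89.3 with GDF15 and from 157 to 357 with pair-feeding. Mmp23 fell by 0.88 ± 0.17 and the membrane-type Mmp15 by 0.52 ± 0.07 against vehicle. Mmp19 was at a log2 fold change of 0.17 (DESeq2 adjusted p = 0.0997).

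Among the other protease inhibitors, Reck, which encodes a membrane-anchored inhibitor of metalloproteinases, rose by 1.27 ± 0.31 on the log2 scale against vehicle (DESeq2 adjusted p = 0.000392). Its GDF15 mice were widely spread, from 73.7 to 347 normalised counts, against 44.8 to 80.3 with vehicle, so the groups overlapped. Serpine2 was at 0.24 (DESeq2 adjusted p = 0.567). Of 17 other ADAM and ADAMTS genes, 10 fell and 0 rose against vehicle (all genes 17.5% and 15.8%). Against pair-fed mice 9 fell in DESeq2 (all genes 13.8%) and 7 in edgeR. The aggrecan-cutting Adamts9, Adamts5 and Adamts1 fell by 1.56 ± 0.35, 1.19 ± 0.27 and 0.72 ± 0.13 on the log2 scale against vehicle, while Adamts10 was at -0.24 and did not pass. The median of that list was -0.59 in both comparisons.

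Of 22 genes of collagen synthesis and processing, 9 fell and 2 rose against vehicle, beside 17.5% and 15.8% of all genes. Against pair-fed mice 8 fell and 2 rose in DESeq2, beside 13.8% and 13.3%, and 9 fell and 2 rose in edgeR. The fold changes in the rest of this paragraph are those against vehicle. Serpinh1, the collagen chaperone HSP47, fell by 1.09 ± 0.19 on the log2 scale. Pcolce, the enhancer of the carboxy-terminal procollagen peptidase, fell by 0.79 ± 0.11. Tgm2, a transglutaminase that forms another kind of crosslink, fell by 0.77 ± 0.14, and P3h3, a prolyl hydroxylase, by 0.58 ± 0.13. The genes that rose, named after their values were seen, were Bmp1, the carboxy-terminal procollagen peptidase (0.40 ± 0.08), and Ppib, a prolyl isomerase of the endoplasmic reticulum (0.36 ± 0.07). Of the related peptidases, Adamts14 and Adamts3, which like Adamts2 act on the amino-terminal end, were at -0.42 and -0.12 (DESeq2 adjusted p = 0.0998 and 0.918), and Tll1, a relative of Bmp1, did not pass (adjusted p = 0.165).

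Of 8 genes of protease activation, 5 fell and 2 rose against vehicle (all genes 17.5% and 15.8%), and 4 fell and 2 rose against pair-fed mice (13.8% and 13.3%). Plau, the urokinase gene, fell by 1.22 ± 0.21 on the log2 scale against vehicle, and Pcsk6 by 0.20 ± 0.06. Plg, which encodes the plasminogen that hepatocytes secrete, rose by 0.57 ± 0.09 against vehicle, and the proprotein convertase gene Furin by 0.23 ± 0.05. Of 6 genes of collagen uptake and lysosomal breakdown, 3 fell against vehicle (all genes 17.5%) and 3 against pair-fed mice (13.8%). The collagen receptor gene Mrc2 fell by 1.25 ± 0.24 and the cathepsin gene Ctss fell by 0.93 ± 0.19 on the log2 scale against vehicle, while Mrc1 and Ctsb were at 0.17 and -0.15 and did not pass. In the comparison of pair-fed mice with vehicle, 0 genes of the 8 lists passed.

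Markers of cell types were counted in the same fits, and the shares of all genes that fell and rose against vehicle, 17.5% and 15.8%, stand as background for their counts. Of 10 stellate cell and fibroblast markers, 8 fell and 1 rose against vehicle at a DESeq2 adjusted p under 0.05, among them Dcn, the most abundant (3918 ± 613 normalised counts in vehicle mice, 2529 ± 411 in GDF15 mice). The one that rose was Hhip, named after its values were seen. The summed normalised count of the list ranged from 6606 to 9082 in vehicle mice, 3970 to 6124 in GDF15 mice and 6526 to 8269 in pair-fed mice. Of 10 macrophage markers 7 fell, and their sum ranged from 5252 to 13524, 3051 to 5555 and 5419 to 10059 in the same order. Spp1, which is also on the cholangiocyte list, made up much of that sum, with means of 4867, 1227 and 3145. Without it the sum of the other 9 ranged from 3133 to 5616, 2230 to 4011 and 3140 to 4782, and the groups overlapped. The resident macrophage marker Clec4f was at a log2 fold change of 0.15 (DESeq2 adjusted p = 0.550), and Gpnmb fell by 2.60 and Trem2 fell by 1.52 on the log2 scale. All 6 cholangiocyte markers fell against vehicle. Of 7 endothelial markers 1 fell and 1 rose, and 1 fell among 6 lymphocyte, 4 neutrophil and 3 mesothelial markers each. The mesothelial marker that fell, Krt19, is also on the cholangiocyte list, while Msln and Upk3b did not pass. The neutrophil marker Ly6g was not among the genes analysed. Of 6 hepatocyte markers 5 rose, Alb by 0.42 ± 0.11. Against pair-fed mice, where 13.8% of all genes fell and 13.3% rose, 6 stellate cell and fibroblast markers, 5 macrophage markers and 2 endothelial markers fell. The cholangiocyte, lymphocyte and neutrophil lists had 1 falling marker each and the mesothelial list 0, while 5 hepatocyte markers rose. That of the cholangiocyte list was Spp1, which is shared with the macrophage list. In edgeR, 4 macrophage and 0 neutrophil markers fell against pair-fed mice, and 4 hepatocyte markers rose. Every hepatocyte, stellate cell and macrophage marker had a mean of at least 10 normalised counts. The part of these shifts in the values of the matrix enzymes and inhibitors was not tested.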

How the data were processed

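Liver RNA of 18 mice (3 groups of 6) was sequenced. The authors trimmed reads with Trim Galore and quantified transcripts with Salmon, and the submitters' processing notes name DESeq2 and the build mm10. Versions, transcriptome and strand setting are not given in the sources used here. The deposited table gives estimated counts by gene symbol, as whole numbers with no scaling for depth. Its lowest row total was 5, so scarcer genes were not analysed here. All 18 columns were used, with groups and replicate numbers from the sample titles. Reads may repeat a molecule, since no molecular identifiers are described, and counting intervals and the limit of 3 counts cover counting error only.

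DESeq2, the tool the study names, was run here on the deposited gene-level table (version 1.42.0, in R 4.3.3). Fitting all libraries with group as the factor, unshrunken fold changes and independent filtering was a choice made here. Calls used an adjusted p under 0.05, with or without an absolute log2 fold change above 1, thresholds that the methods of the study give for liver. The edgeR quasi-likelihood test (version 4.0.16), which kept 12992 genes, was an alternative. Others were TMM library sizes, a fit without independent filtering, a filter of 10 counts in 6 samples, the 12 samples of a comparison alone, replicates 1 to 3 or 4 to 6 alone, a replicate block and leaving out each mouse. The scripts were tested on simulated data. P-values measure the spread between mice.

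The 10 genes and all lists were chosen with earlier results of these data known, and support nothing by themselves. Named were the 10 genes, for each with a mean of at least 50 normalised counts its 3 most correlated genes, and in each pathway list up to 4 genes of that mean with the largest change against vehicle. Coordinates came from GENCODE M21 (GRCm38), and promoters from RefSeq (GRCm38.p6). A match to a promoter table was found for 6 of the 10 genes. A pseudocount of 1 was added before logs. One gene of the list of other protease inhibitors is not reported here, nor are that list's counts.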

Additional observations from a re-analysis of the deposited data

Results flagged for a closer look

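Each of the 30 sets of 6 values (10 genes in 3 groups) was examined for a mouse standing apart from its group by Dixon's criterion. Chance alone would mark about 1.5 of 30, and 2 were marked. Both were pair-fed replicate 1, the highest of its group. For Loxl1 it was at 190 normalised counts, with the next mouse at 106, and for Timp2 at 796, with the next at 521. Without it, the log2 fold change of Loxl1 for GDF15 against pair-fed mice was -0.80, which no longer passed the fold threshold (DESeq2 adjusted p = 0.00930), and that of Timp2 was -0.32 (DESeq2 adjusted p = 0.156), which no longer passed the adjusted p threshold.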

How the results depend on the processing

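Of the counts of genes called among the 10, one moved by over 1.5 times. With only replicates 4 to 6, 5 genes passed an adjusted p under 0.05 in GDF15 against pair-fed mice, where all replicates gave 8, and the fit has fewer samples. Lox, Timp2 and Mmp2 were those lost. The other counts stayed within that range under every alternative run. Leaving out each mouse in turn gave 8 to 9 genes at that threshold and 5 to 7 past both thresholds against vehicle, 6 to 8 and 3 to 4 against pair-fed mice, and 0 for pair-fed mice against vehicle. With edgeR, 6 genes passed against pair-fed mice, Timp2 and Mmp2 being lost. In the leave-one-out fits of that comparison Timp2 was lost in 7 of 18 (GDF15 replicates 3, 4, 5 and 6 and pair-fed replicates 1, 3 and 5, DESeq2 adjusted p 0.0516 to 0.156) and Mmp2 in 4 of 18 (GDF15 replicates 5 and 6 and pair-fed replicates 1 and 5, adjusted p 0.0571 to 0.113). The log2 fold change of Mmp14 turned positive with only replicates 4 to 6, at 0.10 against vehicle and 0.15 against pair-fed mice, and passed in no fit. The replicate numbers were not taken to pair the mice, since no label says so and not every pair of same-numbered samples had deviations correlated above 0.1. That held for 2 of 6 pairs of GDF15 and vehicle (-0.25 to 0.27) and 3 of 6 of GDF15 and pair-fed mice (-0.26 to 0.20). It also held for 4 of 6 pairs of pair-fed mice and vehicle (0.04 to 0.60). In the same order, mean r was -0.03, 0.03 and 0.20 for same-numbered samples and 0.009, -0.005 and -0.04 for the others. Of the 6 samples of the first-named group, 0, 2 and 1 correlated best with their own number. Whether same-numbered mice share a factor was not tested. With the replicate block, 8, 8 and 0 genes passed at the adjusted p threshold and 6, 4 and 0 passed both, so it changed no call, and the standard error of Loxl1 against vehicle went from 0.27 to 0.18. Depth limits Lox and Timp1 most.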
